A study of Caenorhabditis elegans with 2 samples.

Results

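The signal recognition particle (SRP) RNA genes of Caenorhabditis elegans are 5 genes whose names begin with srpr in the RefSeq annotation of WBcel235, the assembly that genome browsers call ce11: srpr-1.1, srpr-1.2, srpr-2.1, srpr-2.2 and srpr-3. They were chosen by name, out of 46890 annotated nuclear genes, with earlier results of these data known. They were set against the 612 nuclear tRNA genes. The data are peak lists from chromatin immunoprecipitation and sequencing of RPC-1, which is the large catalytic subunit of RNA polymerase III. Whole young adult hermaphrodites of strain JK1107, glp-1(q224) III, carried a transgene that stably expressed RPC-1 with GFP-FLAG at its C-terminal end, and GFP was immunoprecipitated. The allele glp-1(q224) is a temperature-sensitive loss of a Notch receptor that germ cells need to proliferate. The age of the animals is given as unknown, and no source used here gives the growth temperature. The single group held 2 samples, replicates 1 and 3, and no sample without the tag or with another treatment was analysed here. Shearing was done by Bioruptor for replicate 1 but by microtip for replicate 3, and this difference cannot be told apart from the replicate. The tissues of the animal cannot be told apart in a whole-animal sample.

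SRP is a particle of 1 RNA and several proteins that binds the signal peptide of a nascent protein on the ribosome, slows its elongation and brings the ribosome to the SRP receptor and the Sec61 channel of the endoplasmic reticulum. Its RNA folds into an Alu domain, to which SRP9 and SRP14 bind, and an S domain, in which SRP54 binds helix 8. RNA polymerase III transcribes SRP RNA genes as it does tRNA genes. In tRNA genes the promoter, an A-box and a B-box, lies inside the transcribed sequence, whereas SRP RNA genes of several organisms, human and plants among them, also use sequence upstream of the start.

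The sequences of the genes come first because the values below turn on how alike the copies are. They were read from the WBcel235 genome of RefSeq on the strand of each gene. The gene srpr-1.1 (B0284.6) lies at chrIII:4378909-4379206 on the minus strand, and capitals mark the runs of at least 8 bases that are the same in all 5 genes. For srpr-1.2 (B0285.12; chrIII:4369468-4369766, plus strand), srpr-2.1 (ZC155.8; chrIII:5211220-5211518, plus strand) and srpr-3 (F44A2.8; chrV:9293334-9293632, minus strand), capitals mark the bases that differ from srpr-1.1 in a pairwise alignment. A base that srpr-1.1 has and the other gene lacks is not marked.
srpr-1.1: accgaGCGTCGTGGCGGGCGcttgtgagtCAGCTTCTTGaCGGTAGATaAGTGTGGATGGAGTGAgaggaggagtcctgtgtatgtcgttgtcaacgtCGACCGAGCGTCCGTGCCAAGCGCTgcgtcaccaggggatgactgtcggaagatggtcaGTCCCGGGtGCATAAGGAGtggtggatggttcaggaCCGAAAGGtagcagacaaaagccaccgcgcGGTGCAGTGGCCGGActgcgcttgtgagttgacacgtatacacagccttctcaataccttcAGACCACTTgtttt
srpr-1.2: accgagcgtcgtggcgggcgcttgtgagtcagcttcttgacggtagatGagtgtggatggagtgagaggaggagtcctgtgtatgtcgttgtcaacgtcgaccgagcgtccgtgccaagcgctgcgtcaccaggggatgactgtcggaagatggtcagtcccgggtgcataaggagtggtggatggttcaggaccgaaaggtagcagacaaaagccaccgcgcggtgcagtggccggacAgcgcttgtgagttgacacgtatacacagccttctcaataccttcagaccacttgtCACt
srpr-2.1: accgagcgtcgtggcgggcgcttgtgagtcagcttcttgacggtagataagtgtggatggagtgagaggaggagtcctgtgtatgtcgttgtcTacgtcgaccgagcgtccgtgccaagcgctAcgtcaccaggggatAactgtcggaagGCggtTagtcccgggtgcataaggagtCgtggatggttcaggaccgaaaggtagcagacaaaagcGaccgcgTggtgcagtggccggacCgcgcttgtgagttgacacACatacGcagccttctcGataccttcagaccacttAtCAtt
srpr-3: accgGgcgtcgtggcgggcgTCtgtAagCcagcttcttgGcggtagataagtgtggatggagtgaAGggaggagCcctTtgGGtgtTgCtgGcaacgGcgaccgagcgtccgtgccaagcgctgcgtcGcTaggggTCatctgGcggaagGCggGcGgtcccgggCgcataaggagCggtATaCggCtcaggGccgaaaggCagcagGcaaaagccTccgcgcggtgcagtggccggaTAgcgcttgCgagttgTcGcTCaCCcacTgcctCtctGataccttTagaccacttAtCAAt
The gene srpr-2.2 (R144.15; chrIII:5031410-5031708, minus strand) is not printed because it differs from srpr-2.1 at 3 substitutions. Of the 298 bases of srpr-1.1, 236 (79.2%) were the same in all 5 genes, and 124 of these stood in 10 uninterrupted runs, the longest of 25 bases. The letters CCGAAAGG, a GAAA between bases that can pair, stood once in each gene, at base 194 of all 5.

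The genes formed 2 close pairs and 1 gene apart. srpr-1.1 and srpr-1.2 were identical at 98.3% of aligned positions, with 4 substitutions and 1 gap. srpr-2.1 and srpr-2.2 were identical at 99%. Between the pairs identity was 94.0 to 94.3%, and srpr-3 was identical to the other genes at 81.7 to 82.5%. The G and C content was 62.9% in srpr-3, against 56.5 to 57.5% in the other 4 genes. The flanks were far less alike than the genes, with 1 exception: the 100 bp upstream of srpr-1.1 and srpr-1.2 were 95% identical. Every other pair of upstream flanks was 44.8 to 64.2% identical, and all pairs of downstream flanks were 45.5 to 56.5% identical.

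**Figure D1:**
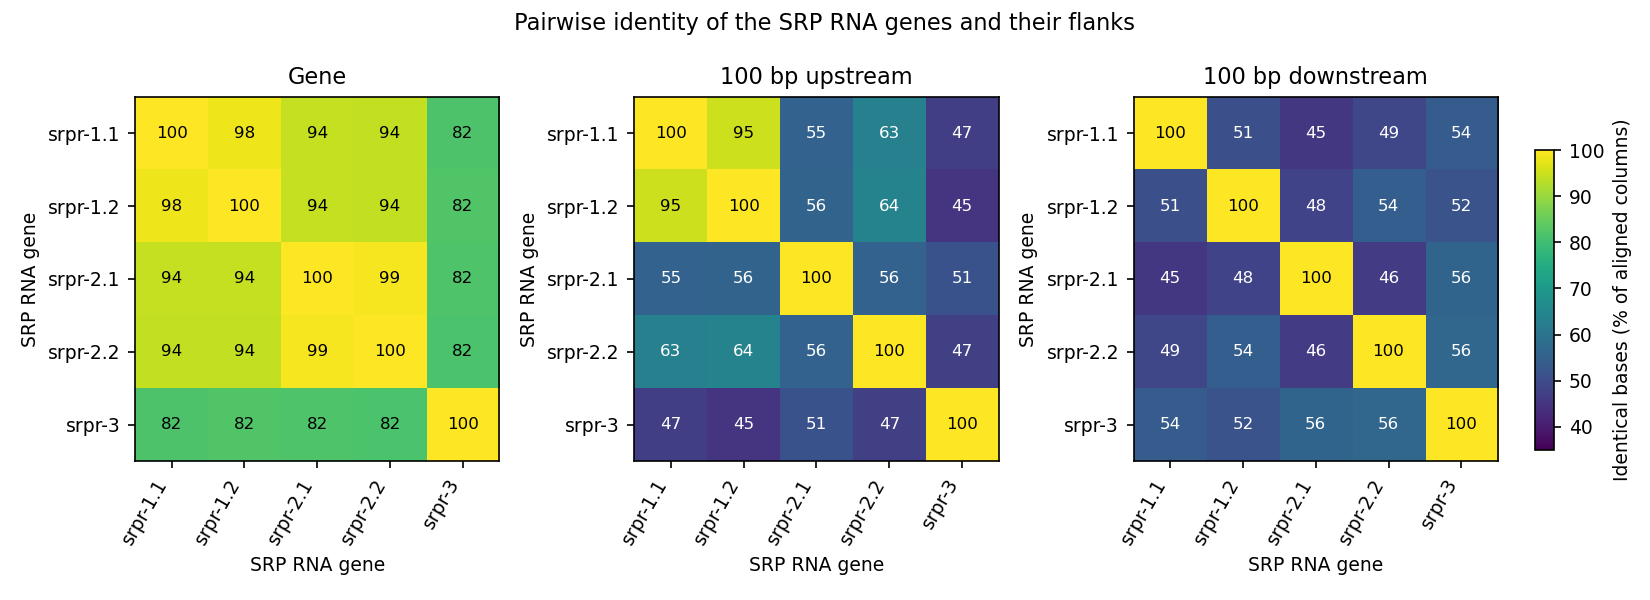
Pairwise identity of the SRP RNA genes (percent of aligned columns with the same base) for the gene, the 100 bp upstream and the 100 bp downstream. The high values in the gene panel, 81.7% and more, fall away in both flanks except upstream of srpr-1.1 and srpr-1.2, at 95%.

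The upstream flanks are shown because SRP RNA genes of other organisms are known to use upstream sequence. They are the 100 bases that end just before the annotated 5′ end, and capitals mark TTATATT.
srpr-1.1 upstream (chrIII:4379207-4379306, minus strand): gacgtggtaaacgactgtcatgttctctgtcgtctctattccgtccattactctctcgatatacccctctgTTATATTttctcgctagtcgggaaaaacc
srpr-1.2 upstream (chrIII:4369368-4369467, plus strand): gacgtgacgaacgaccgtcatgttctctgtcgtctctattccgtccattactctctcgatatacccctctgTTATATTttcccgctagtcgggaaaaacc
srpr-2.2 upstream (chrIII:5031709-5031808, minus strand): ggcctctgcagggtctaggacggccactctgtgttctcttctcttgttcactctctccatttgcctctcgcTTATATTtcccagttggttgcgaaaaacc
srpr-2.1 upstream (chrIII:5211120-5211219, plus strand): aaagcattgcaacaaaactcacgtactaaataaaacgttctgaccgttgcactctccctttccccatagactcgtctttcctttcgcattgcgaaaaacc
srpr-3 upstream (chrV:9293633-9293732, minus strand): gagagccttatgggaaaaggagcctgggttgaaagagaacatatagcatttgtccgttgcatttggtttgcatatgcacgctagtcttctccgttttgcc
The word TTATATT, chosen after these sequences were read, began 29 bp before the 5′ end in srpr-1.1, srpr-1.2 and srpr-2.2, and was not in the 100 bp windows of srpr-2.1 or srpr-3. Searched on both strands of the 50 bp upstream, it stood in 3 of the 5 SRP RNA genes, 15 of 612 tRNA genes (2.45%) and 683 of 19971 protein-coding genes (3.42%). The end of each gene, where RNA polymerase III stops at a run of T, had a first run of 5 T in the 4 genes on III and of 4 T in srpr-3.

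The internal boxes of tRNA genes were also searched, on both strands, as GTTCGANNC for the B-box and TGGCNNAGT for the A-box. The best match to the B-box had 2 mismatches in all 5 SRP RNA genes and began at base 108. That base lies in the run of 25 bases that is the same in all 5, so the shared position follows from the shared sequence. Of the tRNA genes, 442 of 612 (72.2%) held the B-box without a mismatch and 611 (99.8%) with at most 1. At most 1 mismatch is a loose match in a long gene: 37.8% of 46099 windows of 299 bp on III held the B-box that way and 38.9% held the A-box. A match with 2 mismatches is looser still. Its share of windows was not counted, so the B-box matches of the SRP RNA genes cannot be told from chance ones. The A-box with at most 1 mismatch stood in 2 of 5 SRP RNA genes, srpr-2.1 and srpr-2.2, at base 223, and in 470 of 612 tRNA genes (76.8%). The boxes may overlap other motifs, and a window without a match says only that these letters are not in it.

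RPC-1 peaks were found at all 5 SRP RNA genes. A gene was called bound when a peak summit lay inside it or within 250 bp of it. The IDR list holds 1860 peaks that the authors kept by an irreproducible discovery rate, a measure of how ranks repeat between replicates. A peak in it need not rank alike in both replicates: the tRNA gene K01A12.t1 had an IDR peak but no peak within 250 bp in replicate 3. In the IDR list 5 of 5 SRP RNA genes were bound, beside 565 of 612 tRNA genes (92.3%) and 5.16% of all nuclear genes. The 5 genes were also bound by peaks among the 1860 of highest signal in each replicate, where 5.19% of all nuclear genes were bound in replicate 1 and 5.17% in replicate 3. The signal of a peak is the authors' value relative to a control alignment and its scale differs between lists, so signals are compared only within a list or as ranks. For the SRP RNA genes the pooled list gave the same signals and ranks as the IDR list. The depth of the samples is unknown, and no p-value was computed, since all samples belong to 1 group and genes are not replicates.

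Among the SRP RNA genes the strongest peak was at srpr-1.1, with an IDR signal of 5430 at rank 87 of 1860. That summit lay 146 bp beyond the 3′ end of the gene, in a coding exon of pals-26, and signal from srpr-1.1 and from pals-26 cannot be told apart. With summits counted only to 100 bp, srpr-1.1 turned from the highest to the lowest of the 5 genes, with an IDR signal of 87.8 at rank 1275, above 14.2% of tRNA genes. Within 250 bp, its signal was 4380 (rank 92) in replicate 1 and 1226 (rank 48) in replicate 3. At srpr-2.2 the IDR signal was 4543 at rank 151, with 3852 (rank 135) in replicate 1 and 1046 (rank 90) in replicate 3. Both were above the upper quartile of tRNA genes in each list. At srpr-2.1 the IDR signal was 3405 at rank 280, with 2858 (rank 265) in replicate 1 and 833 (rank 183) in replicate 3. At srpr-1.2 the IDR signal was 1645 at rank 543, with 1347 (rank 543) in replicate 1 and 357 (rank 535) in replicate 3. At srpr-3 the IDR signal was 141 at rank 1038, with 115 (rank 1010) in replicate 1 and 35.1 (rank 1014) in replicate 3. The order of the 5 genes was the same in the IDR list and in both replicates, and each gene on III ranked nearer the top of the list in replicate 3 than in replicate 1. The −log10 q-value did not order them further: it was at the list's highest value for srpr-1.1, srpr-1.2, srpr-2.1 and srpr-2.2 (3.23 in the IDR list, shared by 847 peaks) and 2.2 for srpr-3. The genes with TTATATT upstream had IDR signals of 5430, 4543 and 1645 and those without it 3405 and 141, so the 2 sets overlapped in signal.

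The signals of the SRP RNA genes ran from the low tail of tRNA genes into their upper quartile. In the IDR list the SRP RNA genes had a lowest signal of 141, a median of 3405 and a highest of 5430, against 57.5, 2911 and 14745 for the 565 tRNA genes with a peak. The highest signal among SRP RNA genes was 38.5 times the lowest in the IDR list, 38.2 times in replicate 1 and 34.9 times in replicate 3. Most of that span was the step to srpr-3: srpr-1.2, the next lowest, was 11.7 times as high as srpr-3 in the IDR list and in replicate 1, and 10.2 times in replicate 3. The median rank was 280 for SRP RNA genes and 346 for tRNA genes in the IDR list. In the replicate lists these median ranks were 265 against 355 in replicate 1 and 183 against 368.5 in replicate 3. The side of the tRNA genes on which the median of the SRP RNA genes stood depended on the distance, through srpr-1.1. That median percentile was 63.7 in the IDR list within 250 bp and 33.0 within 100 bp. Over this change srpr-1.1 fell from 90.7 to 14.2. The others rose: srpr-1.2 from 27.8 to 33.0, srpr-2.1 from 63.7 to 66.3, srpr-2.2 from 82.2 to 83.8 and srpr-3 from 9.64 to 14.9. With summits inside genes only, a setting chosen after seeing the data, the median was 40.0. There srpr-1.1 had no summit and counted as lowest, and the others stood at 25.7 (srpr-3), 40.0 (srpr-1.2), 70.1 (srpr-2.1) and 85.3 (srpr-2.2).

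**Figure D2:**
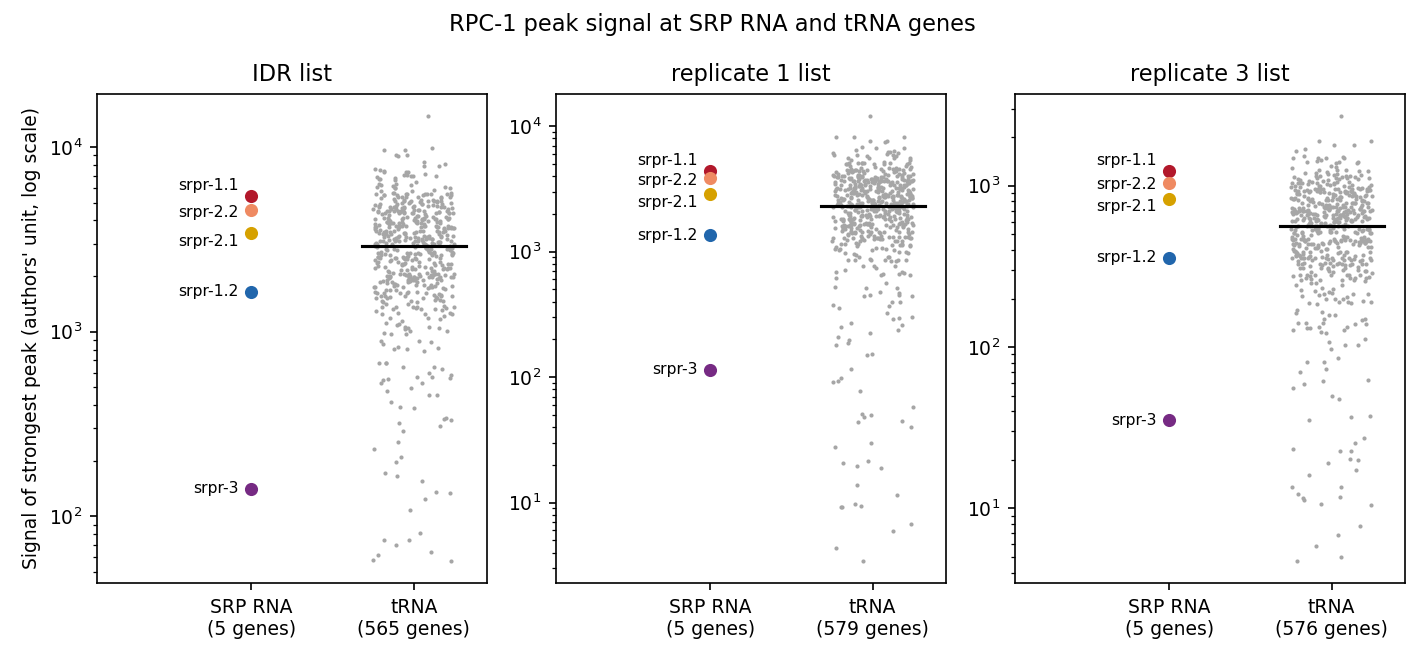
Signal of the strongest peak within 250 bp (authors' unit, log scale) for the 5 SRP RNA genes and for tRNA genes with a peak, in the IDR list and in the lists of replicates 1 and 3; each point is a gene and the line is the median of the tRNA genes. In each panel srpr-1.1, srpr-2.2 and srpr-2.1 lie above the median, srpr-1.2 below it and srpr-3 in the low tail.

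Each gene was placed among all 612 tRNA genes by the percent that had a lower signal, with unbound tRNA genes counted as lower. In the IDR list srpr-1.1 was above 90.7% of tRNA genes, srpr-2.2 above 82.2%, srpr-2.1 above 63.7%, srpr-1.2 above 27.8% and srpr-3 above 9.64%. In replicate 1 these percentiles were 89.9, 84.2, 66.0, 27.8 and 9.80, and in replicate 3 they were 95.4, 90.8, 78.3, 31.4 and 9.64. The 4 genes on III stood higher among tRNA genes in replicate 3 than in replicate 1, and srpr-3 did not. All 5 SRP RNA genes are autosomal, and tRNA genes on X had a higher median IDR signal, 3453, than the autosomal ones, at 2515. Against autosomal tRNA genes alone, the percentiles were 95.5 for srpr-1.1, 89.0 for srpr-2.2, 72.6 for srpr-2.1, 33.3 for srpr-1.2 and 10.4 for srpr-3.

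Divided by the median signal of the tRNA genes with a peak in its own list, the signal could be averaged over the replicates. On that scale srpr-1.1 was at 2.03 ± 0.204, srpr-2.2 at 1.76 ± 0.139, srpr-2.1 at 1.35 ± 0.174, srpr-1.2 at 0.607 ± 0.0375 and srpr-3 at 0.0559 ± 0.00911 (mean ± SD, n = 2). The intervals of srpr-1.1 and srpr-2.2 overlapped, and no other neighbours in this order did. With n = 2 such an interval is not a confidence interval, so neither overlap nor its absence decides whether genes differ. The value of srpr-1.1 is that of the summit in pals-26. srpr-1.1 was nevertheless higher than srpr-2.2 within each list, 1.14 times in replicate 1 and 1.17 times in replicate 3. In replicate 3 srpr-2.2 had 2 peaks, with signals of 1046 and 771, and only the stronger was used.

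The near-identical pairs differed in signal to unequal degrees. srpr-1.1 was 3.30 times as high as srpr-1.2 in the IDR list, 3.25 times in replicate 1 and 3.44 times in replicate 3, with 100 bp upstream that were 95% identical. These ratios set a summit in pals-26 against one inside srpr-1.2. With summits only to 100 bp the direction turned round, with IDR signals of 87.8 for srpr-1.1 and 1645 for srpr-1.2. srpr-2.2 was 1.33 times as high as srpr-2.1 in the IDR list, 1.35 times in replicate 1 and 1.26 times in replicate 3. The value for replicate 3 used only the stronger of 2 peaks at srpr-2.2. Reads that match both members of a pair cannot be told apart, and no source used here says how the authors placed such reads, so the split of signal within a pair is uncertain. The 36-base words that occur once in the genome made up 14.8% of srpr-1.1, 28.8% of srpr-1.2, 31.4% of srpr-2.1, 33.0% of srpr-2.2 and all of srpr-3 (100%). Over the gene and 250 bp on both sides the shares were 63.7, 69.1, 74.1, 74.6 and 100%, against a median of 90.5% for tRNA genes (quartiles 86.6 and 91.8%). The gene with the lowest signal was thus the one whose sequence was wholly unique, and the part of sequence repetition in the differences between genes was not tested.

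The tRNA genes of nearest IDR signal were named for each SRP RNA gene by that signal alone, and their ranks in the replicates need not be close to its own. srpr-1.1 stood between C40C9.t1 (signal 5467) and F22F1.t5 (5389, a peak shared with F22F1.t4), which ranked 89 and 88 in replicate 1 and 84 and 125 in replicate 3. srpr-2.2 stood between ZK899.t1 (4578) and ZK678.t1 (4538), and srpr-2.1 between ZK822.t1 (3410) and C38C6.t1 (3401). srpr-1.2 stood between Y97E10C.t1 (1673) and F57G8.t1 (1642). In replicate 3, each tRNA gene just named ranked below the SRP RNA gene it was paired with. srpr-3 stood between Y17G9A.t1 (156; rank 1002 in replicate 1 and 1010 in replicate 3) and Y40H7A.t1 (136; rank 1191 in replicate 1). In replicate 3 the strongest peak near Y40H7A.t1, at rank 611, was also that of its neighbour Y40H7A.t2.

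**Figure D3:**
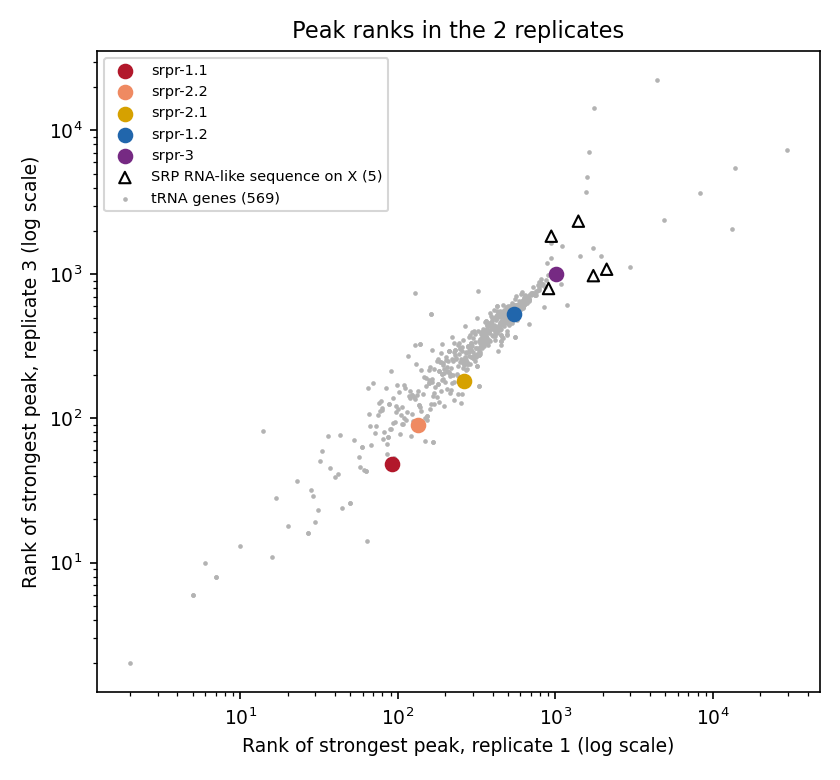
Rank of the strongest peak in replicate 1 (x axis, log scale) and replicate 3 (y axis, log scale) for the 5 SRP RNA genes, for 5 sequences on X that resemble the start of srpr-3 and for 569 tRNA genes. srpr-1.1 (ranks 92 and 48), srpr-2.2 (135 and 90) and srpr-2.1 (265 and 183) lie in the lower part of the cloud of tRNA genes, with a rank nearer the top of the list in replicate 3 than in replicate 1.

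Summits lay further into SRP RNA genes than into tRNA genes. In the IDR list the median summit was 144 bp from the annotated 5′ end in SRP RNA genes and 12 bp in tRNA genes (quartiles 9 and 26 bp). In replicate 1 these medians were 158 and 12 bp, and in replicate 3 they were 249 and 11 bp. tRNA genes are much shorter, so an offset of that size inside the gene was possible only in the SRP RNA genes. The summit was inside the gene for 4 of 5 SRP RNA genes in every list and for 456 of 565 tRNA genes (80.7%) in the IDR list. The median distance of the IDR summit from the middle of the gene was 70 bp for SRP RNA genes and 26 bp for tRNA genes.

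Position and shape differed from gene to gene. At srpr-1.1 the main IDR peak was 780 bp wide (4378263 to 4379042), with its summit at 4378763, 146 bp beyond the 3′ end, in a coding exon of pals-26, which is on the opposite strand. In replicate 1 the summit was at 4378771 in a peak of 764 bp, and in replicate 3 at 4378768 in a peak of 685 bp. Of 519 IDR peaks at tRNA genes, 22 were at least as wide, and the widest was 1522 bp. A second, weaker peak of 147 bp stood 76 bp upstream of the 5′ end of srpr-1.1, with a signal of 87.8 at rank 1275. In the replicates that second peak had a signal of 68.9 (rank 1269) in replicate 1 and 14.4 (rank 3181) in replicate 3. The 2 summits thus lay on either side of the stretch of the gene that holds few unique words, and all words over the main summit were unique (100%).

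At srpr-1.2, which lies in an intron of ckb-2, a choline kinase gene, on the same strand, the IDR peak was 316 bp wide (4369631 to 4369946) with its summit at 4369759, 291 bp from the 5′ end and near the 3′ end of the gene. The replicates placed it at 4369759 and 4369754. Its 3′ flank held only unique words, and 88.9% of words over the summit were unique. Both members of the pair thus had their main summit at or beyond the 3′ end, in mostly or wholly unique sequence.

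At srpr-2.1, which is in no other gene, the IDR peak was 369 bp wide (5211351 to 5211719) and its summit at 5211364 was 144 bp from the 5′ end. The summit was 158 bp from the 5′ end in replicate 1 and 245 bp in replicate 3. At srpr-2.2, in an intron of the kinesin gene klp-6 on the opposite strand, the IDR peak was 244 bp wide (5031463 to 5031706), with its summit at 5031585, 123 bp from the 5′ end. That is the most common width in the IDR list, held by 475 of 1860 peaks. Replicate 1 gave 1 peak with its summit 124 bp in, and replicate 3 gave 2, at 249 bp (signal 1046) and at 33 bp (signal 771, rank 220), the summit at 33 bp being also in the non-coding RNA gene R144.16 that overlaps the 5′ part. The IDR summits of srpr-2.1 and srpr-2.2 lay where 0% and 5.56% of words were unique. The summits of both genes moved between replicates by more than those of srpr-1.1 and srpr-1.2, which stayed within 8 bp of the IDR summit.

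At srpr-3, which is overlapped on its own strand by the non-coding RNA gene F44A2.13, the IDR peak was 425 bp wide (9293277 to 9293701). Its summit at 9293553 was 79 bp from the 5′ end, and it was the same in replicate 1 and at 9293501, 131 bp in, in replicate 3. Signal from srpr-3 and from F44A2.13 cannot be told apart. No tRNA gene was close to any SRP RNA gene: the nearest was 6.83 kb from srpr-1.2 (B0285.t1), 16.3 kb from srpr-1.1 (B0285.t1), 24.6 kb from srpr-3 (F44A2.t1), and 83.5 kb from srpr-2.1 and 263.3 kb from srpr-2.2 (both T15B12.t1).

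**Figure D4:**
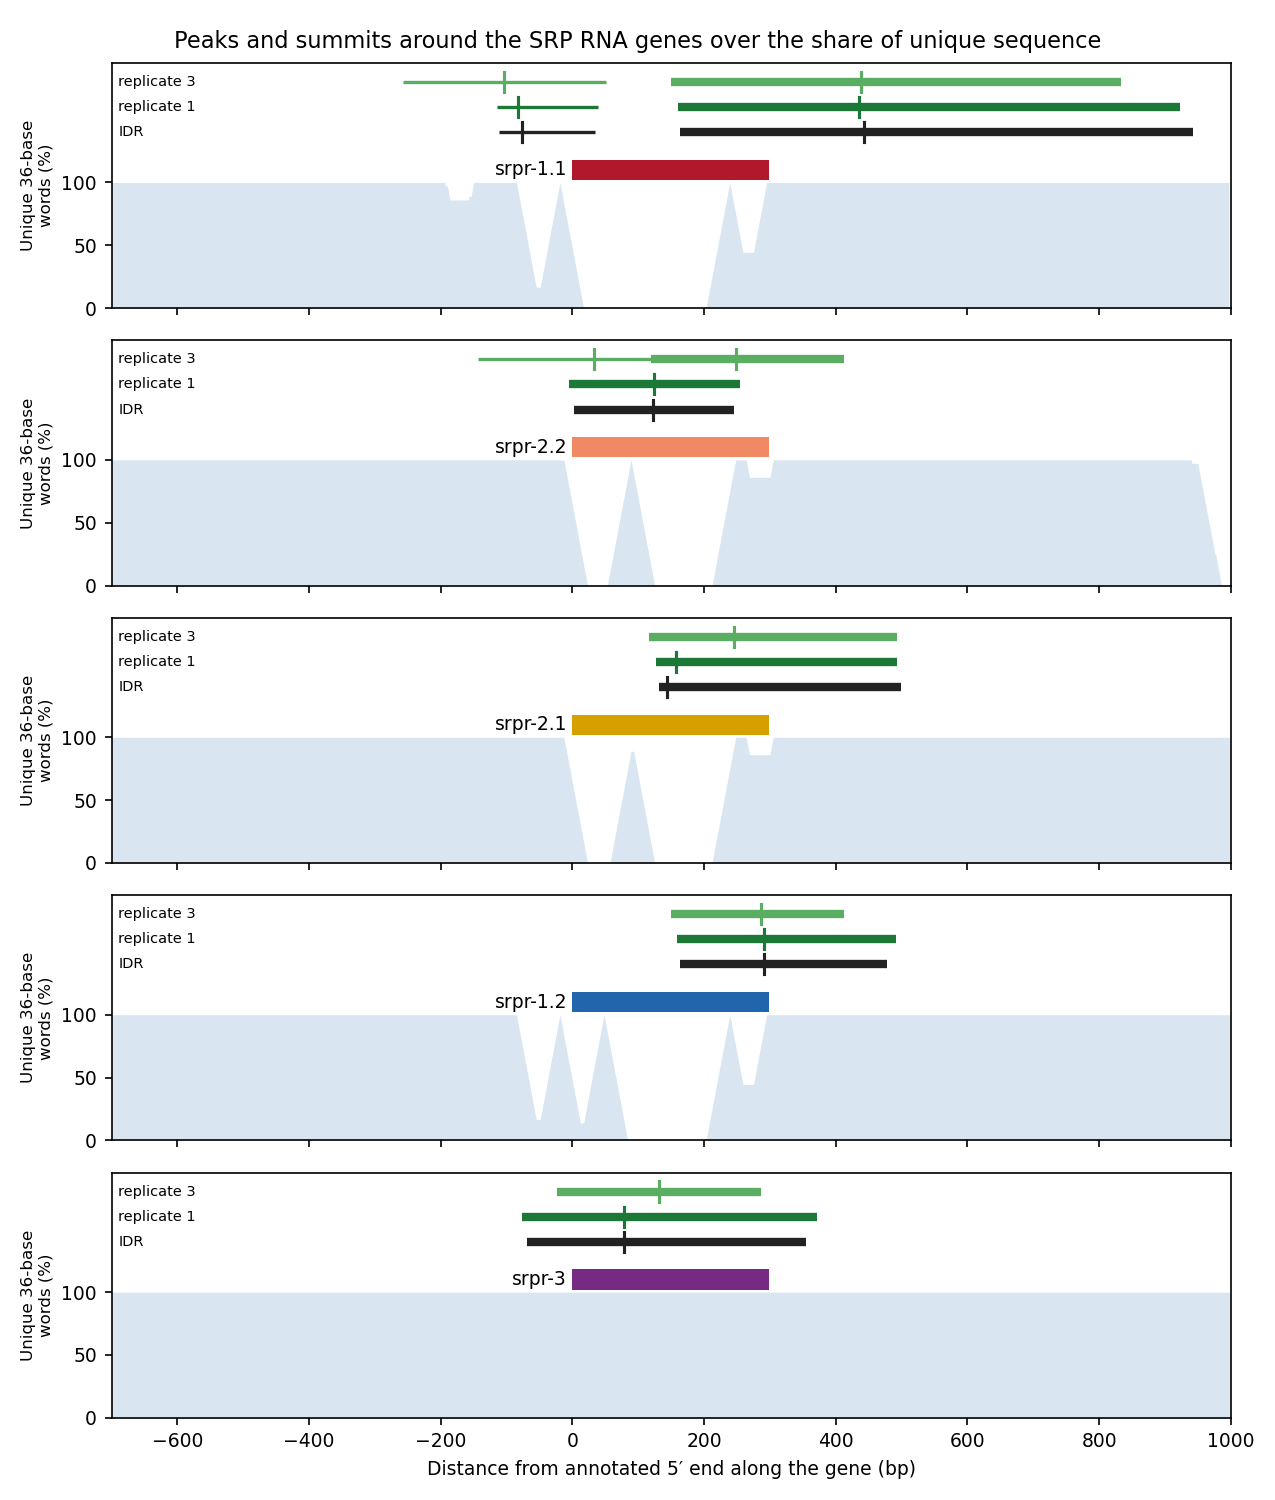
Peaks (bars) and summits (ticks) of the IDR list and both replicates around each SRP RNA gene (coloured box), in bp from the annotated 5′ end along the gene; thick bars are the strongest peak, thin bars other peaks, and the shaded area is the percent of 36-base words over each base that occur once in the genome. The main srpr-1.1 peak has its summit at 443 bp, beyond the 3′ end, and the shaded area falls inside every gene but srpr-3, where it is 100% throughout.

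Sequences that resemble an SRP RNA gene elsewhere in the genome were sought after the peaks had been seen, with an expect value of at most 0.001. There were 7, all on X, and all were most like the first 55 bases of srpr-3 or part of them, in the Alu domain end of the gene. An IDR summit lay within 250 bp of 5 of the 7, against 1.56% of windows of 47 bp on X. Among the top 1860 peaks, 4 of 7 had a peak in replicate 1 and 4 of 7 in replicate 3. The share of windows on X was not counted for the replicates, so these counts have no background beside them. Their IDR signals, 71.3 to 276, were of the order of that of srpr-3 (141) and far below those of the 4 genes on III. Their ranks ran from 876 to 1478 among the 1860 peaks of the IDR list, whose lowest signal was 54.3. These 2 are shown because they had the highest signal of the 7 (copy 5) and the most matches among the srpr genes (copy 3), with capitals for the bases that differ from srpr-3. A base missing from a copy is not marked: copy 3 has 54 bases against bases 1 to 55 of srpr-3.
copy 5 (chrX:16698130-16698176, plus strand): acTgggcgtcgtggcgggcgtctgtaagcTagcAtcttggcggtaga
copy 3 (chrX:16371114-16371167, plus strand): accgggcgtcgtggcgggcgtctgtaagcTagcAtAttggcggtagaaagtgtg
Copy 5, annotated as the non-coding RNA gene F22H10.10, had an IDR signal of 276 at rank 876, with 176 (rank 906) in replicate 1 and 88.2 (rank 798) in replicate 3. Copy 3, in F01G12.19 within the acetylcholinesterase gene ace-1, had 81.1 at rank 1345, with 45.0 (rank 1744) and 38.3 (rank 980) in the replicates. Copy 1, in the non-coding RNA gene C05D9.12, matched bases 4 to 27 without a difference and had 172 at rank 986. Copy 2, in no annotated gene, had 84.8 at rank 1300, and copy 7, in the pseudogene T20F7.5, had 71.3 at rank 1478. Copies 4 and 6 had no IDR summit. The IDR summit lay inside copy 3, but beyond the end of copies 1, 2, 5 and 7, at 34, 69, 116 and 83 bp from their first base. Copies 5 and 7 had the same 47 bases, and the 44 bases of copy 6 were among them. Copy 3 began with the 47 bases of copy 4. The copies are thus not independent of one another. Reads that match several of them cannot be told apart, so the split of signal among them is uncertain. TTATATT stood 27 to 30 bp before the first base of copies 2, 3, 5, 6 and 7 and at no such place for copies 1 and 4. The word therefore stood at 1 copy without an IDR summit (copy 6) and was missing at 1 with one (copy 1). In the 50 bp upstream it stood at 2.45% of tRNA genes and 3.42% of protein-coding genes, and its share of windows on X was not counted. Since the word was picked from the srpr flanks and the copies repeat one another, these places are not independent cases.

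The protein partners were examined at their promoters, in a window that began 500 bp before the 5′ end and ended 250 bp after it. The list held 11 genes for SRP proteins, both subunits of the SRP receptor and the Sec61 channel, which are transcribed by RNA polymerase II. An IDR summit stood at 3 of 11 of these promoters, against 2.65% of 19971 protein-coding promoters. They were F37F2.2, which encodes SRP19 and had an IDR signal of 297 at rank 861, with 229 (rank 843) in replicate 1 and 58.9 (rank 874) in replicate 3. sec-61.G, for the gamma subunit of the channel, had 114 at rank 1127, with 90.8 (rank 1103) and 18.5 (rank 1776) in replicates 1 and 3. sec-61.B, for the beta subunit, had 106 at rank 1161, with 87.5 (rank 1123) and 13.3 (rank 3920). All 3 signals were far below those of the SRP RNA genes on III, and 1 of them, at F37F2.2, was above that of srpr-3. The promoters of ZK512.4 (SRP9), F25G6.8 (SRP14), F21D5.7 (SRP54), srpa-72, both receptor genes (F38A1.8 and R186.3) and sec-61.A held no IDR summit. The count depended on the window and the list: it was 1 of 11 within 250 bp on both sides, against 1.63% of all promoters, and 6 of 11 in the pooled list, against 25.9%. Among the top 1860 peaks it was 3 of 11 in replicate 1, against 2.58%, and 2 of 11 in replicate 3, against 1.9%.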

How the data were processed

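RPC-1 was immunoprecipitated through its GFP tag from 2 samples, replicates 1 and 3. Per the file headers, peaks were called by the authors on ce11 for each replicate and for both pooled, against a control alignment, and from these an IDR list was made. Each deposited peak carries the authors' signal value and a −log10 q-value. The aligner, peak caller and IDR threshold were not given in the sources used here. No list has more than 30000 peaks, so weaker peaks may be missing from them. The lists hold no counts, so depth is unknown. Lists on ce10 and the control alignment were not used here, and 1 gene of the protein list is not reported here by name.

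Summits were matched to RefSeq genes of WBcel235 (46890 nuclear genes) within 250 bp of the gene, and the strongest was taken. Promoter summits lay at least 500 bp from tRNA, SRP, RNase P, RNase MRP, Y and 5S RNA genes. Genes were aligned globally (match 1, mismatch -1, gap open -2, extension -0.5) with Biopython 1.88, and similar sequences were sought with BLAST+ 2.17.0 (word size 7). Python 3.11.15, numpy 2.4.6, scipy 1.17.1 and matplotlib 3.10.9 were used. The matching, ranking and word counts were tested on simulated data. Named genes were the 5 srpr genes, the tRNA genes next above and below each in IDR signal, genes within 250 bp of a summit, and bound genes of the SRP protein, receptor and Sec61 list. The members and lists were chosen with earlier results of these data known. Alternatives changed the distance, the list, the set of tRNA genes, the promoter window and the word length, or left out a replicate.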

Additional observations from a re-analysis of the deposited data

How the results depend on the processing

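All 5 SRP RNA genes stayed bound at 100 bp and in the top 1860 peaks of either replicate alone. They were also bound at 500 bp and in the pooled list, where the count could not fall. A summit within 250 bp is also within 500 bp, and the pooled list held the same peaks at these genes. In the upper part of the IDR list 4 were bound, without srpr-3. Among the top peaks of both replicates 4 were bound when the number of peaks was set to 930 or the distance to 100 bp. The share of all nuclear genes bound was counted only within 250 bp, in the IDR list and in the top 1860 peaks of each replicate. The counts at the other settings therefore have no such share beside them. The median percentile among tRNA genes was 63.7. It was 33.0 at 100 bp, where srpr-1.1 lost its main summit, and 72.6 against autosomal tRNA genes. With summits inside genes only, where srpr-1.1 had none and counted as lowest, it was 40.0. The last 2 settings were chosen after seeing the data. With 1 replicate left out it was 66.0 to 78.3. The median summit offset, 144 bp, was 158 to 249 bp with 1 replicate left out. The count of SRP protein, receptor and Sec61 promoters, 3, was 1 within 250 bp on both sides (1.63% of all promoters), 2 to 3 with 1 replicate left out (1.9 and 2.58%) and 6 in the pooled list (25.9%). The median share of unique words around SRP RNA genes, 74.1% with 36 bases, was 78% with 50 and 91% with 100, lengths also chosen after seeing the data. The cause of these shifts was not tested, except at 100 bp. No paired analysis was possible because there is 1 group and no test. The limit of the data is the unknown depth and the unstated handling of reads that match several copies.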
